A study of Mus musculus with 4 samples.

Results

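The heat shock proteins and chaperonins of macrophages were described in normal mice and in mice with T cell acute lymphoblastic leukaemia (T-ALL), in bone marrow and in spleen. Genes were taken by symbol: those beginning with Hsp, Dnaja, Dnajb or Dnajc, the chaperonin genes Cct2 to Cct8, and Tcp1, leaving out Hspg2, Hspbap1 and pseudogenes. Of 17008 genes with a read in any library, 80 fitted. Of these 80, 58 reached 10 CPM (a gene's uniquely mapped reads scaled to the library's total) in at least 1 library, among 10312 genes at that level. The other 22 stayed below it everywhere.

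All mice were C57BL/6J, 6 to 8 weeks old by the labels. The leukaemic mice had received GFP+ T-ALL cells taken from other leukaemic mice, without irradiation, and their macrophages were sorted at day 21; the protocol also names a sort at day 0, which is taken here to be that of the samples titled normal. The groups are macrophages of normal bone marrow, T-ALL bone marrow, normal spleen and T-ALL spleen, with 1 library each, and the labels call the T-ALL cells leukaemia-associated macrophages. The sources used here do not give the sort markers, the number of mice behind a library or their sex. With 1 library per group the differences have no replicate check: folds are reported with exact binomial 95% intervals that cover counting error only, and no p-value was computed.

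Chaperones bind proteins that are not folded and keep them from clumping. HSP70 proteins hold short exposed stretches of a client in a cycle driven by ATP, which J proteins (the DNAJ classes A, B and C) start and nucleotide exchange factors such as the HSP110 proteins end. HSP90 proteins act later, on nearly folded clients such as kinases and steroid receptors, and are steered by cochaperones. Chaperonins are closed barrels in which a client folds alone. The cytosolic one, CCT (also TRiC), is a double ring of unlike subunits that folds actin and tubulin, and the mitochondrial one is HSP60 (Hspd1) with its lid HSP10 (Hspe1). Under heat or other stress, heat shock factor 1 binds heat shock elements, which are inverted repeats of GAA, and switches on the inducible members. The chaperones of the endoplasmic reticulum (ER) answer instead to the unfolded protein response, in part through the ER stress response element.

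Promoter stretches of some members are shown as background. Heat shock elements are those that heat shock factor 1 binds, and the ER stress response element belongs to the unfolded protein response. RefSeq promoters of the mouse assembly GRCm38.p6, each of 250 bases before and 50 after a transcription start, held 47 of the 58 genes, in 63 promoters. The others had no promoter to search: Cct4, Dnajc2, Dnajc5, Dnajc11, Dnajc18, Dnajc30, Hsp90aa1, Hsp90ab1, Hspa8, Hspa9 and Hspa13. The elements searched on both strands were a heat shock element of 2 units (GAANNTTC or TTCNNGAA), its form with 3 units (GAANNTTCNNGAA or TTCNNGAANNTTC, each of which contains the first) and the ER stress response element (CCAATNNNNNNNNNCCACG or its reverse complement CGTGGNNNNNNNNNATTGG). In the lines below the capitals mark the element, the sequence runs 5′ to 3′ on the gene's strand, and every stretch lies before the transcription start.

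Hspd1, chr1:55088034-55088101, minus strand, 4 units in a row, 144 to 127 bases before the start: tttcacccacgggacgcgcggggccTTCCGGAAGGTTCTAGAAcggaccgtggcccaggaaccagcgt
Dnajb6, chr5:29735827-29735889, plus strand, 3 units: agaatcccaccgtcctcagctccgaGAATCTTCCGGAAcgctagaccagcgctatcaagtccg
Hsph1, chr5:149636337-149636394, minus strand, 2 units: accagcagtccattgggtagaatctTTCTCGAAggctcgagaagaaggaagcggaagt
Hspa1a, chr17:34972228-34972285, minus strand, 2 units, 104 to 97 bases before the start: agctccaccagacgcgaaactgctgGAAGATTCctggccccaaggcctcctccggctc
Hspa5, chr2:34772000-34772068, plus strand, ER element, 65 to 47 bases before the start: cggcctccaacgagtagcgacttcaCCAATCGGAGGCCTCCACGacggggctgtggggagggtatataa
Hsp90b1, chr10:86705613-86705681, minus strand, ER element, 212 to 194 bases before the start: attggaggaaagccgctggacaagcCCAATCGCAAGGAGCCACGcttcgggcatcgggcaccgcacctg
Hsp90b1, chr10:86705508-86705576, minus strand, ER element read backwards, 107 to 89 bases before the start: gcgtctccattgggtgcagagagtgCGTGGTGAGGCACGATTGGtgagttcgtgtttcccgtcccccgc
Dnajc3, chr14:118937802-118937870, plus strand, ER element, 105 to 87 bases before the start: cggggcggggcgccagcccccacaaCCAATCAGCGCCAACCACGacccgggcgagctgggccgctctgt

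Hspe1 starts on the other strand of the same stretch as Hspd1, so that the 4 units lie 89 to 72 bases before its own start and the chaperonin and its lid share them. The Hspa1b promoter holds the Hspa1a stretch unchanged, at chr17:34959310-34959367, and 296 of the 300 bases of the pair of promoters are the same. The 2-unit element occurred in the promoters of 13 members (Cct2, Cct5, Cct6a, Dnaja1, Dnajb4, Dnajb6, Dnajc10, Dnajc27, Hspa1a, Hspa1b, Hspd1, Hspe1 and Hsph1), in 15 of the 63 promoters, against 15.1% of all 32851 promoters. The 3-unit element was found for Dnajb6, Hspd1, Hspe1 and Hsph1 (for Hsph1 after the start, so it is not shown), and in 0.603% of all promoters. The ER element was found for Hspa5, Hsp90b1 and Dnajc3, which are all ER chaperones, and in 0.119% of all promoters. A match is a description of these letters, not a site of binding, and no match says only that the letters are not in this window.

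**Figure D1:**
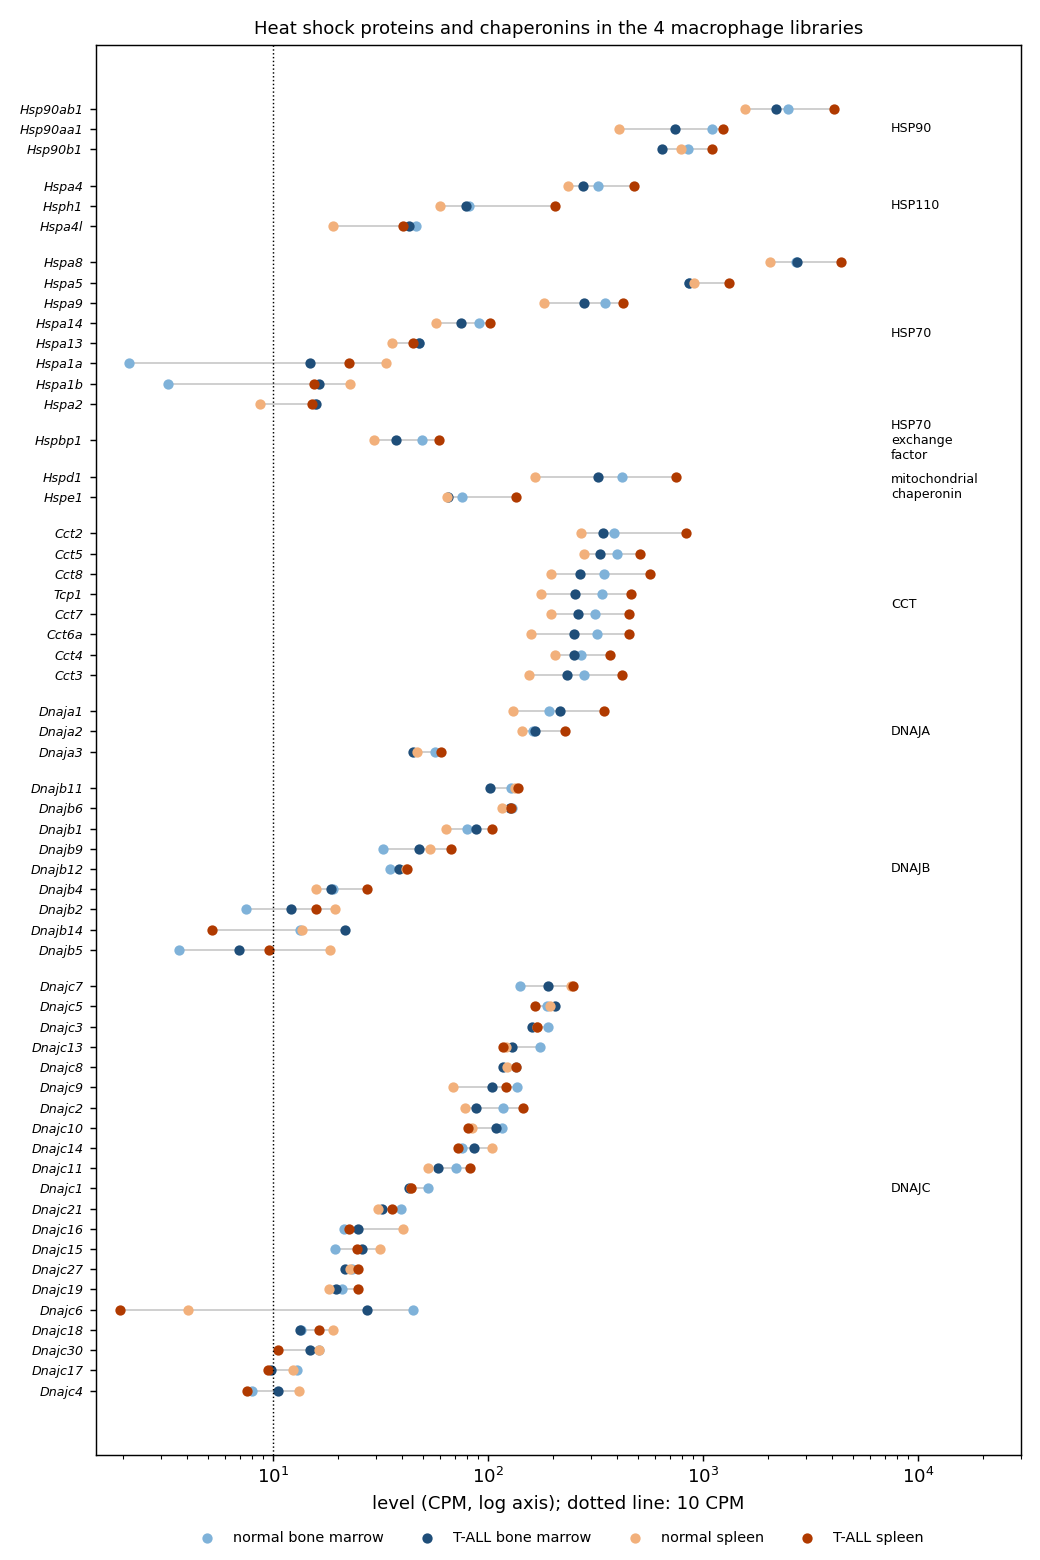
Level of each of the 58 genes (CPM, log axis) in the 4 libraries, by family; each point is 1 library, the grey line joins the lowest to the highest, and the dotted line is 10 CPM. In the CCT rows normal spleen is the lowest and T-ALL spleen the highest point for all 8 subunits, while most DNAJC points lie close together.

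The constitutive chaperones dominated. The 58 genes together took 1.47% of the reads in normal bone marrow, 1.29% in T-ALL bone marrow, 1.05% in normal spleen and 2.14% in T-ALL spleen, with Wilson 95% intervals of 1.47% to 1.48%, 1.28% to 1.30%, 1.05% to 1.06% and 2.13% to 2.15%. The share in T-ALL spleen was therefore the largest of the 4 and that in normal spleen the smallest. RPKM, which divides uniquely mapped reads by gene length, was used to compare genes. By RPKM Hspa8 (the constitutive cytosolic HSP70, Hsc70) was the highest member in every library. It was at 1299, 1293, 974 and 2096 RPKM in the order normal bone marrow, T-ALL bone marrow, normal spleen and T-ALL spleen. The same order is used for all lists of 4 values that follow.

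Hsp90ab1, the constitutive cytosolic HSP90, came next at 993, 865, 621 and 1644 RPKM. The ER HSP70 Hspa5 (BiP) stood at 330.0, 326, 345 and 509 RPKM, so that the cytosolic Hspa8 exceeded it by 3.94, 3.97, 2.82 and 4.12 times. At the other end, the stress-inducible Hspa1a was at 0.765, 5.25, 11.98 and 8.12 RPKM, so that Hspa8 exceeded it 1697-fold in normal bone marrow and 81.3-fold in normal spleen. The first of these ratios rests on 21 reads of Hspa1a. Of the stretches of 50 bases, 74.8% for Hspa8 and 66.3% for Hspa1a also occur in other genes. Unique counts may leave such reads out, so the size of ratios between genes is uncertain. The reads covered 99.7% to 99.9% of the length of Hspa8 and 23.9% to 46.9% of that of Hspa1a.

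The 10 CPM limit fell between Dnajc17 and Dnajc4, whose highest levels were 12.9 and 13.2 CPM, and Dnajc24, Dnajc25 and Hspb11, whose highest were 9.74, 9.64 and 9.09 CPM. All 7 Hspb symbols with a read, most of them small heat shock proteins, lay below it. Hspb1 (HSP25), a main small heat shock protein of many stressed tissues, had 1, 2, 3 and 5 reads, and Hspb8 had 3, 0, 0 and 0. The remaining 15 were Dnaja4, Dnajb3, Dnajb7, Dnajb8, Dnajb13, Dnajc12, Dnajc22, Dnajc24, Dnajc25, Dnajc28, Hspa1l, Hspa12a, Hspa12b, Cct6b and Cct8l1. Cct6b, the testis form of the CCT subunit encoded by Cct6a, had at most 4 reads in a library.

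The libraries held 8.98 M to 9.81 M uniquely mapped reads, so 1 read was worth 0.101 to 0.112 CPM. Each held transcripts of other cell types beside those of macrophages. Summed over 18 core macrophage genes, among them Emr1 (F4/80), Csf1r and Mertk, the level was 4446, 12800.4, 12859 and 6993 CPM. Summed over 13 neutrophil precursor genes such as Mpo and Elane it was 38224, 20319, 433 and 197 CPM. Summed over 18 T cell genes such as Cd3e and Lck it was 349.6, 971, 1289.6 and 4264 CPM, and over 16 thymocyte and T-ALL genes 872, 1076, 606 and 1880.1 CPM, with Rag2 at 0 reads in normal spleen. Summed over 30 cell cycle genes such as Mki67 and Top2a it was 8751, 5480.1, 1699.7 and 6632 CPM. Xist, which is expressed from the inactive X chromosome, was at 861, 0.644, 849 and 416 CPM. T-ALL bone marrow thus stood apart in Xist, and a difference of sex between the bone marrow libraries cannot be told apart from T-ALL there. Between the spleen libraries Xist went from 849 CPM in normal to 416 CPM in T-ALL, and a difference in sex was not tested there either. In such bulk libraries fewer cells of a type and less RNA per cell cannot be told apart.

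In spleen, the T-ALL library had higher levels for the cytosolic folding machinery and for the mitochondrial chaperonin. The size rule for a higher or lower gene was a difference of at least 1 in log2(CPM + 1), which is 2-fold, and a level of 10 CPM in whichever library was higher. By this rule 16 of the 57 members measured were higher in the T-ALL spleen library, against 10.3% of all 9774 genes measured, so the members' share was the larger, and 1 was lower, against 11% of all genes. The median log2 difference of the members was 0.48, with -0.08 for all genes, and 41 members were positive and 16 negative. Their summed level went from 10567 to 21208 CPM, a ratio of 2.01 (1.99 to 2.02).

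Most subunits of the CCT barrel passed the rule in spleen. Cct2 was at 385, 344, 272 and 831 CPM, a ratio of 3.06 (2.92 to 3.20) between the spleen libraries. Cct8 was at 348, 267, 197 and 569 CPM, a ratio of 2.89 (2.74 to 3.05), and Cct6a at 322, 251, 159 and 454 CPM, a ratio of 2.85 (2.69 to 3.03). For these subunits normal spleen was the lowest library and T-ALL spleen the highest.

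Cct3 was at 279, 232, 156 and 418 CPM and 2.69-fold higher in T-ALL spleen (2.53 to 2.86). Tcp1, which encodes the alpha subunit, was at 340.3, 255, 176 and 461 CPM and 2.62-fold higher (2.47 to 2.78). Cct7 was at 315, 262, 197 and 451 CPM and 2.29-fold higher (2.17 to 2.43). The 2 subunits under the rule were Cct4 at 271, 252, 205 and 371 CPM, and Cct5 at 399.5, 332, 279 and 512 CPM. So 6 of 8 subunits were past 2-fold, against 10.3% of all genes. The log2 differences ran from 0.85 to 1.61 with a median of 1.40 and an SD over subunits of 0.29. The summed level went from 1640.0 to 4068 CPM, a ratio of 2.48 (2.43 to 2.53).

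The subunits occupy equal numbers of places in the ring, so their levels per length were set side by side. In normal bone marrow they lay between 129 RPKM (Cct7) and 227 RPKM (Cct5), a ratio of 1.76, and in T-ALL bone marrow between 106 and 186 RPKM, again a ratio of 1.76. In normal spleen they lay between 68.9 RPKM (Cct6a) and 157 RPKM (Cct5), a ratio of 2.28. In T-ALL spleen they lay between 186 RPKM (Cct7) and 427 RPKM (Cct2), a ratio of 2.30. Cct5 was the highest subunit in 3 libraries and Cct2 in T-ALL spleen.

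**Figure D2:**
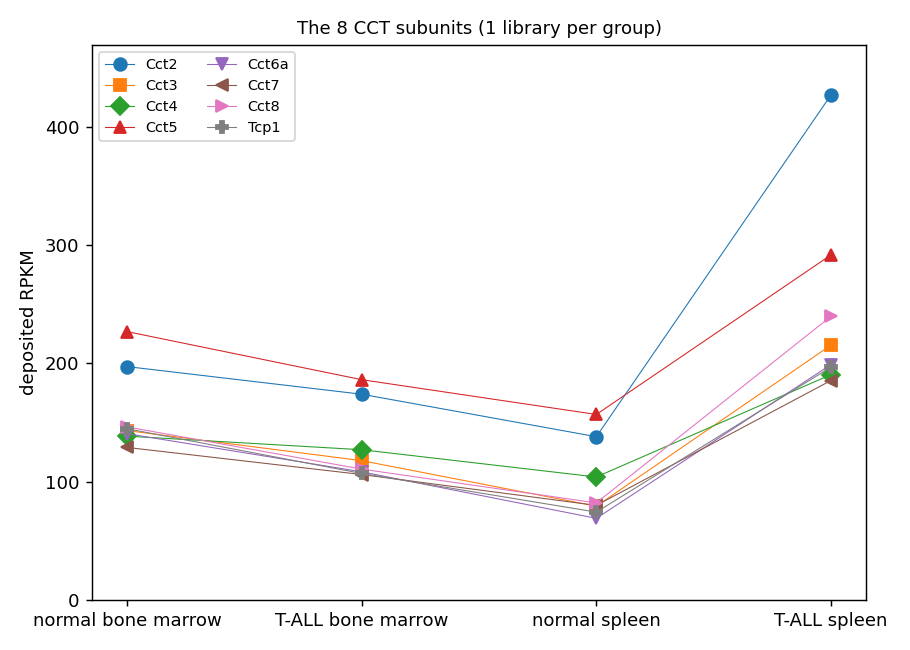
Deposited RPKM of the 8 CCT subunits in the 4 libraries; each symbol is 1 subunit in 1 library, and lines only join the values of one subunit. All 8 are lowest in normal spleen and highest in T-ALL spleen, where Cct2 reaches 427 RPKM.

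Among the HSP90 genes the cytosolic pair passed the rule in spleen and the ER form did not. Hsp90ab1 was at 2477, 2187, 1563 and 4087 CPM, 2.61-fold higher in T-ALL spleen (2.56 to 2.67). Hsp90aa1, the more inducible cytosolic form, was at 1106, 738, 406.5 and 1233 CPM, 3.03-fold higher (2.92 to 3.15). Hsp90b1 (Grp94, in the ER) was at 851, 642, 792 and 1103 CPM. Per length, Hsp90ab1 exceeded Hsp90aa1 by 2.55, 3.37, 4.37 and 3.77 times, so Hsp90aa1 was relatively scarcest in normal spleen. The size of this ratio is uncertain, because 58.5% of the stretches of Hsp90aa1 but 4.49% of those of Hsp90ab1 occur in other genes. Unique counts may leave reads of such stretches out. The reads covered 98.2% to 99.1% of the length of Hsp90aa1.

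In the HSP70 family 2 constitutive members passed the rule in spleen. Hspa8 was at 2719, 2744, 2058 and 4374 CPM, 2.13-fold higher in T-ALL spleen (2.09 to 2.16). Hspa9 (mortalin, the mitochondrial HSP70 that pulls proteins in through the inner membrane) was at 349.6, 280.2, 182 and 426 CPM, 2.34-fold higher (2.21 to 2.49). Hspa5 was at 859, 859.5, 907 and 1319.9 CPM and Hspa13, another ER member, at 47.9, 47.9, 35.9 and 44.8 CPM, and neither passed the rule.

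Hspa14, which binds ribosomes, was at 90.7, 75.2, 57.0 and 103 CPM, and Hspa2 at 15.7, 15.8, 8.73 and 15.3 CPM. All told 2 of 8 HSP70 genes were higher in T-ALL spleen, against 10.3% of all genes, with a median log2 difference of 0.64. Hspbp1, an exchange factor for HSP70, was at 49.1, 37.3, 29.4 and 59.2 CPM and just missed the limit on the log2(CPM + 1) scale, with a difference of 0.98.

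The HSP110 exchange factors were higher in T-ALL spleen for 3 of 3 genes, against 10.3% of all genes. Hspa4 and Hspa4l only just passed the limit, with log2 differences of 1.02 and 1.04. Hsph1 (HSP105) was at 82.0, 79.3, 60.1 and 204 CPM, 3.40-fold higher (3.08 to 3.74). Hspa4 (Apg2) was at 324, 276, 235 and 477 CPM, 2.03-fold higher (1.93 to 2.14). Hspa4l was at 46.2, 42.8, 19.0 and 40.1 CPM, 2.11-fold higher (1.75 to 2.54), and its T-ALL spleen level lay below both bone marrow levels.

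The mitochondrial chaperonin had the largest ratio of any member in spleen. Hspd1 was at 421, 323, 165 and 747 CPM, 4.52-fold higher in T-ALL spleen (4.27 to 4.79). Hspe1 was at 76.1, 65.5, 64.4 and 136 CPM, 2.11-fold higher (1.91 to 2.33). The 2 genes with the 4-unit element in common thus differed in ratio, and per length Hspd1 over Hspe1 was 1.86, 1.66, 0.860 and 1.85. Hspd1 was below Hspe1 per length in normal spleen and above it in the other libraries.

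J proteins, which select the clients of HSP70, showed few such differences. Of 32 DNAJ genes measured in spleen, 1 was higher and 1 lower, against 10.3% and 11% of all genes. Their median log2 difference was 0.02, with -0.08 for all genes. Their summed level went from 2288 to 2733 CPM, a ratio of 1.19 (1.17 to 1.22). The higher one was Dnaja1 (HDJ2), a main cytosolic partner of Hspa8, at 192, 217, 130.2 and 345 CPM, 2.65-fold higher (2.48 to 2.83). Dnaja2, the class A gene with the highest RPKM, was at 162, 165, 144 and 228 CPM, and Dnaja3 of the mitochondria at 56.8, 44.9, 46.5 and 60.4 CPM.

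The lower one was Dnajb14, a J protein of the ER membrane that faces the cytosol, at 13.4, 21.7, 13.6 and 5.20 CPM, 2.63-fold lower in T-ALL spleen (1.87 to 3.75), a call that was lost with a pseudocount of 5 CPM or a minimum of 50 CPM. Dnajb1 (HSP40), the class B gene most tied to the heat shock response, was at 80.3, 88.1, 63.9 and 104 CPM. Dnajb6, a suppressor of protein aggregation whose promoter is shown above, was nearly flat at 129, 126, 116 and 129 CPM. None of the 20 class C genes measured passed the rule, against 10.3% of all genes higher and 11% lower, with a median log2 difference of -0.02. Dnajc7, which also binds HSP90, was at 142, 190.2, 244 and 249 CPM, and Dnajc3 (p58IPK, in the ER) at 191, 159.9, 169 and 168 CPM.

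The members were also grouped by where the proteins work, with 10.3% of all genes higher in T-ALL spleen. Of the cytosolic HSP90, HSP70 and HSP110 genes 6 of 10 were higher in T-ALL spleen, with a median log2 difference of 1.03. Of 8 mitochondrial members 3 were higher (Hspd1, Hspe1 and Hspa9), with a median of 0.53. Of 8 ER members none was, which for so few genes is close to the share of all genes, with a median of 0.18 and a range from -0.05 to 0.54. These 8 were Hspa5, Hspa13, Hsp90b1, Dnajb9, Dnajb11, Dnajc1, Dnajc3 and Dnajc10. Hspa5, Hsp90b1 and Dnajc3 are the 3 with the ER element. Dnajb14, in the ER membrane but facing the cytosol, was not counted among them and had a log2 difference of -1.24. In this grouping the 2 cytosolic genes with negative values were Hspa1a and Hspa1b.

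**Figure D3:**
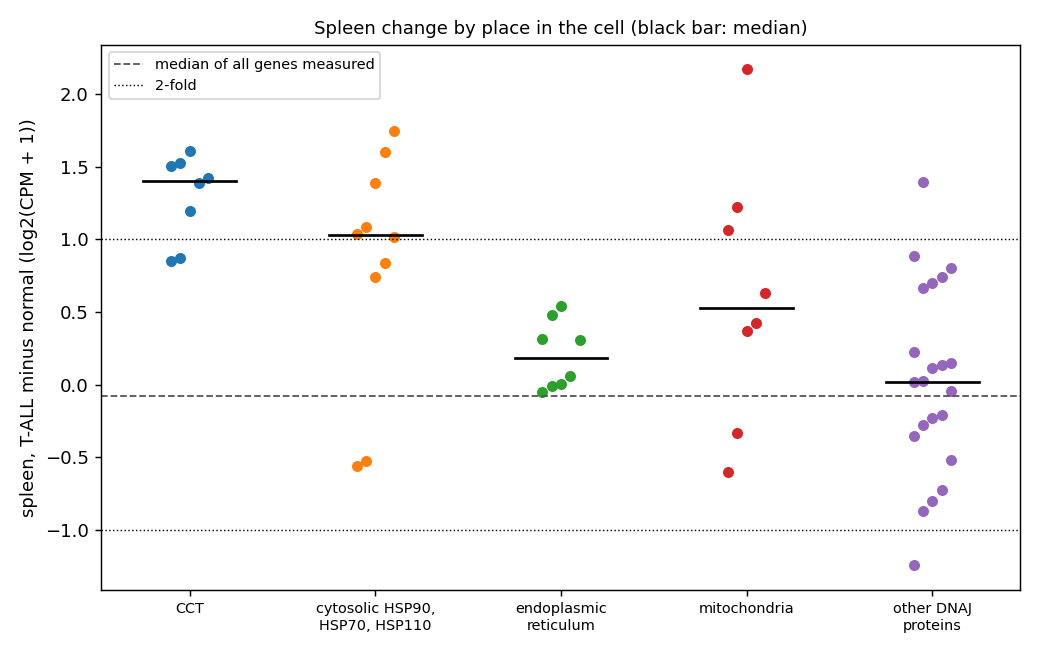
Log2 difference between T-ALL spleen and normal spleen, on the log2(CPM + 1) scale, for each member by place in the cell; each point is 1 gene, black bars are group medians, the dashed line is the median of all genes (-0.08) and dotted lines are 2-fold; Hspbp1 is not drawn. The CCT points lie between 0.85 and 1.61 and the ER points between -0.05 and 0.54. Dnajb14, in the ER membrane, is drawn among the other DNAJ proteins.

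Markers of cell types and of division moved with these spleen values. All 30 cell cycle genes were higher in T-ALL spleen, with a median log2 difference of 1.99, 15 of 17 T cell genes were higher, with a median of 1.38, and 11 of 13 thymocyte and T-ALL genes were higher, with a median of 2.62. Of the core macrophage genes 8 of 18 were lower, with a median of -0.78, of the dendritic cell genes 9 of 10, with a median of -2.05, and of the B cell genes 4 of 12, with a median of -0.94. Their part in the chaperone values was not tested. Stretches of several members also occur in near copies elsewhere. Of the stretches of 50 bases in the GENCODE M21 transcripts, 74.8% for Hspa8 and 58.5% for Hsp90aa1 occur in another gene's transcripts. The share was 44.8% for both Hspd1 and Hspe1. Unique counts may then leave reads out. The reads covered 95.5% to 97.7% of the length of Hspd1 and 87.8% to 93.8% of that of Hspe1.

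In bone marrow the picture differed: the inducible HSP70 pair was higher in the T-ALL library, and the other 55 chaperones measured stayed under 2-fold. Of 57 members measured 2 were higher, a smaller share than the 8.01% of all genes, and 0 were lower, against 1.03% of all genes. The median log2 difference was -0.13, with -0.04 for all genes, and 18 members were positive and 39 negative. Their summed level went from 14659 to 13022 CPM, a ratio of 0.888 (0.882 to 0.895).

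Hspa1a and Hspa1b, neighbouring genes that encode almost the same inducible HSP70, were the 2. Hspa1a was at 2.13, 14.8, 33.7 and 22.5 CPM, from 21, 138, 301 and 208 reads, and was 6.95-fold higher in T-ALL than in normal bone marrow (4.37 to 11.6). Hspa1b was at 3.25, 16.3, 22.7 and 15.5 CPM, from 32, 152, 203 and 143 reads, and was 5.02-fold higher (3.41 to 7.61). Both were lowest in normal bone marrow and highest in normal spleen.

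The pair cannot be separated well. Of the stretches of 50 bases in the transcript of Hspa1a 66.3% also occur in other genes, mostly Hspa1b, and the reads covered 23.9% to 46.9% of the length of Hspa1a. In spleen the pair went the other way, with log2 differences of -0.56 and -0.52 between T-ALL and normal, which did not reach 2-fold.

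**Figure D4:**
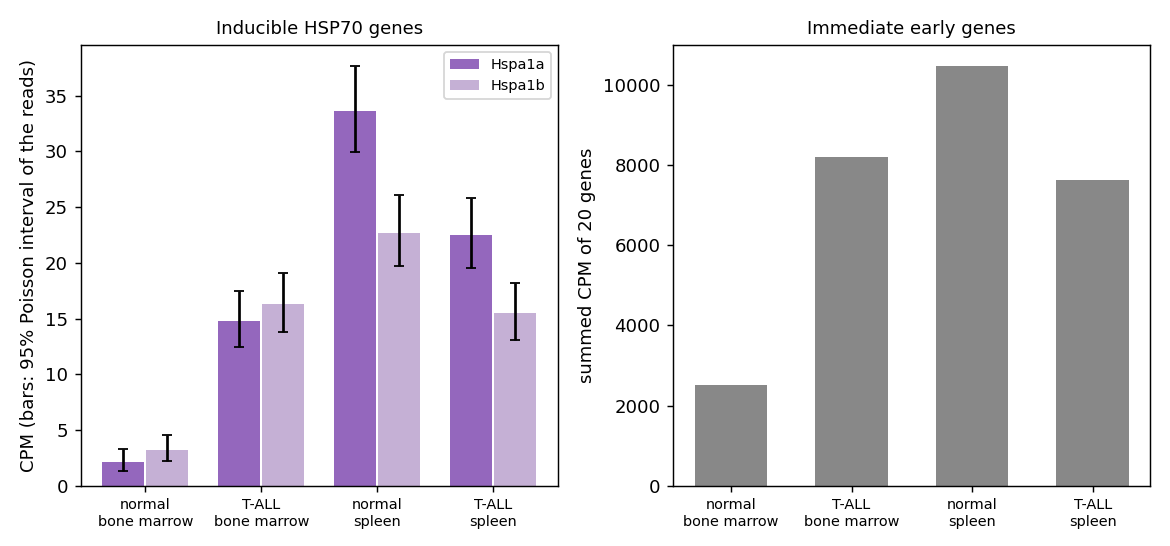
Left, level of Hspa1a and Hspa1b (CPM) in the 4 libraries, with 95% Poisson intervals of the reads. Right, summed CPM of 20 immediate early genes in the same libraries; both panels are lowest in normal bone marrow and highest in normal spleen.

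The immediate early genes, a list of 20 fast-responding genes such as Atf3 and Junb, had their lowest and highest sums in the same libraries. Their summed level was 2513, 8195, 10485 and 7638 CPM, and 16 of 18 measured were higher in T-ALL bone marrow, with a median log2 difference of 1.82. Atf3, the one with the largest fold, went from 16.0 to 167 CPM in bone marrow. Core macrophage genes were higher too, in 17 of 18 cases, and the part of either list in the values of Hspa1a and Hspa1b was not tested.

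All 8 CCT subunits had values below 0 in T-ALL against normal bone marrow, and none reached 2-fold. Their log2 differences ran from -0.42 (Tcp1) to -0.11 (Cct4), with a median of -0.26 and an SD over subunits of 0.11. The 3 HSP90 genes were also negative, with a median of -0.40, and so were Hspd1 and Hspe1, with a median of -0.30. The 8 HSP70 genes had a median of 0.00251, with Hspa8 and Hspa5 nearly equal in both libraries. The 30 cell cycle genes were negative in the same comparison, with a median of -0.70 and none past 2-fold, and 9 of 13 neutrophil precursor genes were lower; their part was not tested.

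**Figure D5:**
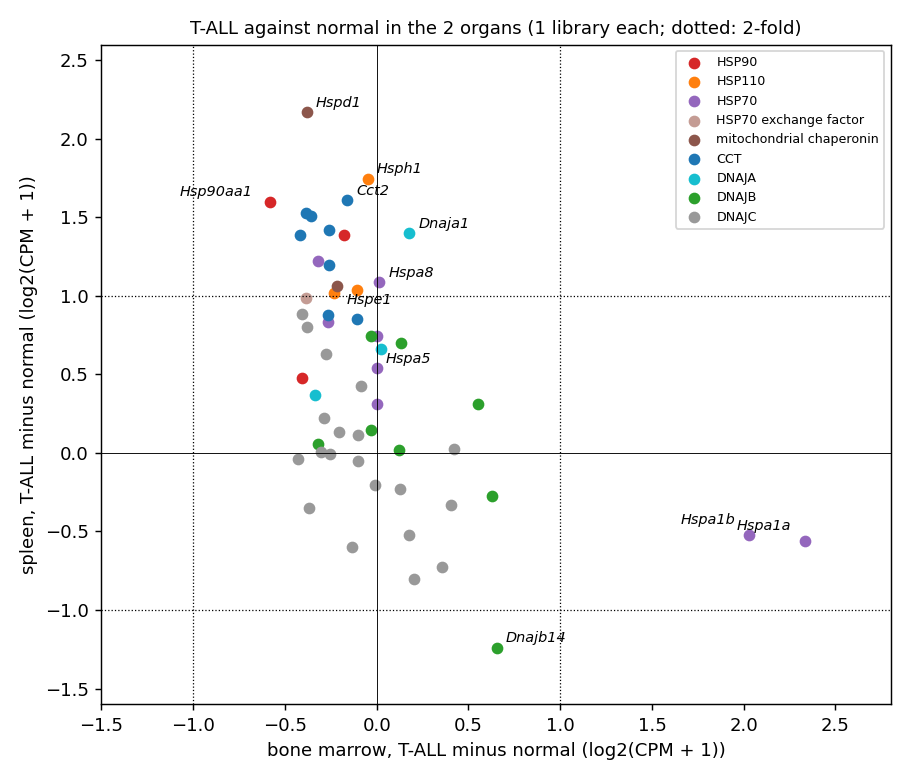
Log2 difference between T-ALL and normal in bone marrow (horizontal) and spleen (vertical), on the log2(CPM + 1) scale; each point is 1 of the 56 members measured in both organs, coloured by family, and dotted lines are 2-fold. The upper left part, lower in bone marrow and higher in spleen, holds 32 members, among them all 8 CCT subunits, while Hspa1a and Hspa1b lie far to the right and below 0.

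The T-ALL comparisons in the 2 organs share no library, so signs could be set side by side. Of 56 members measured in both, 32 were lower in T-ALL bone marrow and higher in T-ALL spleen, 9 were higher in both, 6 lower in both, and 9 higher in bone marrow and lower in spleen. Of all 9178 genes measured in both organs, 34.8% were lower in bone marrow and higher in spleen, and 34.8% the reverse, so that the members' share was larger for the first pattern and smaller for the second. Hspd1 had log2 differences of -0.38 in bone marrow and 2.17 in spleen, and Hsp90aa1 -0.58 and 1.60. Dnajb14 had 0.66 and -1.24.

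Between the normal organs, 41 members had lower values in spleen and 17 higher ones, and few passed the rule. These organ comparisons share libraries with those above. Of 58 members measured, 5 were lower in normal spleen, against 14% of all genes, and 4 were higher, against 16.1% of all genes, so both shares were below those of all genes. The median log2 difference was -0.30, with -0.04 for all genes.

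The higher ones were Hspa1a, 15.8-fold (10.2 to 25.9), Hspa1b, 6.99-fold (4.80 to 10.5), Dnajb5, 5.05-fold, and Dnajb2, 2.58-fold. Dnajb5 was at 3.65, 6.98, 18.5 and 9.64 CPM and Dnajb2, a J protein that delivers clients to the proteasome, at 7.51, 12.1, 19.4 and 15.8 CPM. Both were lowest in normal bone marrow and highest in normal spleen, as the HSP70 pair was.

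The lower ones were Hsp90aa1, 2.72-fold, Hspd1, 2.55-fold, Hspa4l, 2.43-fold, Cct6a, 2.02-fold, and Dnajc6. Dnajc6 (auxilin), which strips clathrin from vesicles with Hspa8, stood apart from the other members, at 45.05, 27.3, 4.03 and 1.95 CPM, from 444, 254, 36 and 18 reads. It was 11.2-fold lower in normal spleen than in normal bone marrow (7.96 to 16.2). All 8 CCT subunits were negative, with a median of -0.75.

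Between the T-ALL organs more members had higher values in spleen, 42 against 14. Of 56 members 5 were higher in T-ALL spleen than in T-ALL bone marrow, against 5.44% of all genes, and 2 were lower, against 11% of all genes. The higher ones were Hsph1, 2.57-fold, Cct2, 2.41-fold, Hspd1, 2.31-fold, Cct8, 2.13-fold, and Hspe1, 2.07-fold. The lower ones were Dnajc6, 14.0-fold (8.67 to 24.0), and Dnajb14, 4.17-fold (3.03 to 5.84). The median log2 difference was 0.42, with 0.01 for all genes.

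Over the 4 libraries, 25 of the 58 members had their lowest level in normal spleen and their highest in T-ALL spleen, against 14.7% of all genes. The count was 8 of 8 for CCT, 2 of 2 for the mitochondrial chaperonin, 2 of 3 for HSP90, 2 of 3 for HSP110, 3 of 8 for HSP70, 2 of 3 for DNAJA, 2 of 9 for DNAJB and 3 of 21 for DNAJC, together with Hspbp1. The summed thymocyte and T-ALL genes had this same order, lowest in normal spleen and highest in T-ALL spleen. The summed cell cycle genes were also lowest in normal spleen, but highest in normal bone marrow. The summed T cell genes were highest in T-ALL spleen, but lowest in normal bone marrow. The summed core macrophage genes had another order, highest in normal spleen and lowest in normal bone marrow. The part of these lists in the chaperone order was not tested.

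The partners of the chaperones outside the symbol rule were looked at through lists chosen with earlier results known. Of 33 cochaperones of HSP90 and HSP70 measured, 12 were higher in T-ALL spleen and none lower, against 10.3% and 11% of all genes, with a median log2 difference of 0.40. In T-ALL bone marrow 0 of 33 were higher or lower, against 8.01% and 1.03% of all genes, with a median of -0.18. Fkbp5, an HSP90 cochaperone that is a classical target of the glucocorticoid receptor, went from 59.3 to 425 CPM in spleen, 7.17-fold (6.54 to 7.86).

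Bag2, an HSP70 exchange factor that inhibits the ubiquitin ligase CHIP, went from 2.35 to 16.3 CPM, 6.96-fold (4.39 to 11.6). Ppid (cyclophilin 40) was 3.58-fold higher, Nudcd2 3.09-fold and Fkbp4 2.90-fold. In bone marrow Fkbp4 was at 307 CPM in the normal and 199 CPM in the T-ALL library, which was under 2-fold.

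For the remaining lists, counts past the rule stand beside the shares of all genes. These were 10.3% higher and 11% lower in T-ALL spleen, and 8.01% and 1.03% in T-ALL bone marrow. Lists of 8 or 16 genes are too short to set apart from these shares. Of 8 prefoldin and CCT cofactor genes, which hand actin and tubulin to the barrel, 0 passed the rule in either T-ALL comparison, with medians of -0.09 in bone marrow and 0.27 in spleen. Of 29 genes of ER folding and the unfolded protein response 1 was higher in T-ALL bone marrow (Ppp1r15a, 2.73-fold) and 1 lower in T-ALL spleen (Ern1, from 35.8 to 16.5 CPM). Of 16 genes of mitochondrial protein quality 2 were higher in T-ALL spleen, the prohibitins Phb2, 2.16-fold, and Phb, 2.13-fold, and 0 in bone marrow; 14 of the 16 had positive values in spleen, with a median of 0.53, and 14 negative ones in bone marrow, with a median of -0.16. Hsf1, the master factor of the heat shock response, was at 51.4, 50.7, 59.4 and 59.8 CPM, and neither it nor Hsf2 nor Hsbp1, which encodes a protein that binds heat shock factors, passed the rule.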

How the data were processed

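Macrophage RNA was sequenced in 4 libraries, 1 per group. Per the file headers, the authors deposited for each gene its counts of uniquely mapped reads, length, percent coverage and RPKM. Genes without a line were set to 0. The sources used here name no aligner, genome build, annotation or strand setting, and the coordinates shown are those of RefSeq on GRCm38.p6 only. Counts were scaled to CPM on TMM library sizes (edgeR 4.0.16, R 4.3.3; factors 1.00, 0.991, 0.996 and 1.01). The deposited RPKM was used to compare genes. The remaining steps ran in Python 3.11.15 (scipy 1.17.1, statsmodels 0.14.6, numpy 2.4.6, pandas 2.3.3; plots by matplotlib 3.10.9).

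No model was fitted, as each group had 1 library. A difference counted at 2-fold or more on log2(CPM + 1), with 10 CPM in the higher library; ratios are of CPM, with exact binomial 95% intervals, which treat reads as independent molecules although PCR copies are not. Any member at 10 CPM could be named; folds are given for members past the rule and the highest of each family by RPKM, and of each list the 5 largest changes, or the highest gene where none passed. Named outside this rule, after their values were seen, are Hsf1, Xist, Rag2 and the log2 differences of Hspbp1 and Cct4. Members and lists were chosen with earlier results of these data known, and the grouping by place in the cell was made from known localisation after the files were seen. The alternatives tried were scaling by total counts or by median of ratios, a pseudocount of 0.1 or 5 CPM, a minimum of 0, 1 or 50 CPM, RPKM in place of CPM, and a limit of 1.5-fold or 4-fold.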

Additional observations from a re-analysis of the deposited data

Results flagged for a closer look

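For 15 members the T-ALL difference ran in opposite directions in bone marrow and spleen, each beyond its own counting error and at least 1 of them past 2-fold. The same held for 16.7% of all 9178 genes measured in both organs, and the members were 15 of 56. With 1 library per group the difference between organs was not tested. The spleen log2 difference minus the bone marrow one was 1.77 for Cct2, 1.68 for Cct3, 1.86 for Cct6a, 1.46 for Cct7, 1.91 for Cct8 and 1.80 for Tcp1. It was 2.55 for Hspd1 and 1.28 for Hspe1, the mitochondrial chaperonin and its lid. It was 2.18 for Hsp90aa1, 1.57 for Hsp90ab1, 1.25 for Hspa4 and 1.54 for Hspa9. The 3 members with the opposite sign were Hspa1a at -2.90, Hspa1b at -2.55 and Dnajb14 at -1.90.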

How the results depend on the processing

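No paired analysis was possible because each group has 1 library, and for the same reason no replicate could be left out. Total-count and median-of-ratios scaling and the deposited RPKM kept the counts of members within 1.5 times and all medians close. With a limit of 1.5-fold, T-ALL bone marrow had 4 of 57 members higher and 1 lower, against 14.1% and 7.09% of all genes. T-ALL spleen had 27 and 5 of 57, against 20.1% and 23.9%. Normal spleen against normal bone marrow had 9 and 15 of 58, against 24.5% and 24.6%. T-ALL spleen against T-ALL bone marrow had 20 of 56 higher, against 14.1%. With a limit of 4-fold, T-ALL spleen had 1 higher and 0 lower, against 2.41% and 1.34% of all genes. Normal spleen had 1 lower, against 5.81%. T-ALL spleen against T-ALL bone marrow had 0 higher and 1 lower, against 1.57% and 4.68%. With a minimum of 50 CPM, T-ALL bone marrow had 0 higher, against 7.89% of all genes, and T-ALL spleen 0 lower, against 10.5%. Normal spleen had 0 higher and 3 lower, against 17.2% and 14%. T-ALL spleen against T-ALL bone marrow had 0 lower, against 10.4%. The medians at this minimum were 0.85 in T-ALL spleen and 0.62 between the T-ALL organs. With no minimum, T-ALL spleen had 2 lower, against 9.56% of all genes, and a median of 0.15. Normal spleen then had 8 higher, against 13.6%. At 1 CPM T-ALL spleen had 2 lower, against 12.1%, and a median of 0.31, and normal spleen 8 higher, against 17%. A pseudocount of 5 CPM left 0 lower in T-ALL spleen, against 8.25% of all genes. Minimums changed which genes were measured; the cause of the other shifts was not tested. Of the single-member differences recomputed (101 over 26 members), 763 values stayed within their counting interval and 17 moved beyond it, 8 of them with the pseudocount of 5 CPM, and 1 difference turned in direction, that of Hspa8 in bone marrow, from 0.013 to -0.0063 with total counts, -0.0059 with median-of-ratios scaling and -0.0063 with the deposited RPKM. Low levels limit the precision of Hspa1a, Hspa1b, Dnajb5, Dnajb14 and Dnajc6.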
